A study of Homo sapiens with 4 samples.

Results

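MIA PaCa-2, an established human line grown from a pancreatic carcinoma, received either a mimic, a synthetic copy of miR-4800-3p, or a scramble, a control oligonucleotide of scrambled order, and its polyadenylated RNA was sequenced. The comparison of these 2 libraries is described here, gene by gene. Genes were kept where the mean over both libraries was at least 5 FPKM (sequenced fragments scaled to transcript length and to the library total). This leaves out genes with few reads. To leave out short RNAs, 74 symbols beginning with MIR, SNOR, SCARNA, RNU, RNY, RN7S or VTRNA were dropped by prefix alone. A longer host gene with such a prefix is dropped with them. These filters kept 8732 of the 26255 gene symbols in the files. As the mean takes in both libraries, a gene low in 1 library can be kept by its level in the other. The labels call the mimic group an overexpression of miR-4800-3p and both groups an epithelial cell line from pancreatic tumour tissue. The dose of oligonucleotide, the transfection reagent and the time of harvest are not stated in the labels. The comparison was made to find messenger RNAs targeted by the microRNA, and the series is titled for metastasis-related expression. The same mimic and scramble were also given to PSN-1, another pancreatic tumour line, with 1 library each, and its values are set beside those of MIA PaCa-2 where they help.

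A mature microRNA is loaded into an Argonaute protein and guides it to messenger RNAs, mostly through pairing of its seed, the stretch from base 2 to base 8, with sites in the 3′ untranslated region (UTR). Bound messages are translated less and degraded faster, each usually by a modest amount, and changes in those first targets can go on to change genes that hold no site. A transfected mimic is a double-stranded RNA that supplies the mature strand directly, so the line's own copy of the microRNA gene is not needed, and its amount in the cell is set by the transfection rather than by the cell.

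Each change below is log2 of (mimic FPKM + 1) over (scramble FPKM + 1), so positive values are higher with the mimic, and a change past 1.5-fold is one beyond 0.585 in either direction. The added 1 FPKM pulls the changes of low genes towards 0. With 1 library on each side no test between conditions was possible, no spread between cultures is known, and every difference is a difference between 2 libraries. The error that can be given is the counting error, from fragment numbers estimated from the most common low value after scaling by transcript length. By this estimate 1 FPKM stood for about 14.2 fragments per kilobase in the mimic library and 12.7 in the scramble library. The median counting error was 0.12 (SE of a log2 change) for genes of 5 to 10 FPKM and 0.032 for genes of 100 FPKM and over. The summed FPKM was 510909 and 495251.

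The mature sequence is shown because every site count below was made from it. It is hsa-miR-4800-3p from RefSeq, at chr4:2250091-2250109 on the minus strand of GRCh38.p14, with its seed in capitals.

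hsa-miR-4800-3p: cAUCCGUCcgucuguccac

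Its 19 bases pair through the seed with GACGGAT in a message. Following the usual site classes, an 8mer is GACGGATA, a 7mer-m8 is GACGGAT, a 7mer-A1 is ACGGATA and a 6mer is ACGGAT alone. The sites below are the ones the results on targets turn on: they come from site genes with low changes in the comparison (SNAP29 was picked after its values were seen), and each is the sense strand of the longest 3′ UTR annotated for the gene in GENCODE release 29 (GRCh38), and capitals mark the bases of the site. Windows that are shorter upstream begin at the first base after the stop codon.

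KIFC1, 7mer-m8, chr6:33409692-33409698, plus strand: aGACGGATccagat
AGPAT9, 7mer-m8, chr4:83604771-83604777, plus strand: gagGACGGATgacagc
SNAP29, 7mer-m8, chr22:20887842-20887848, plus strand: agacaGACGGATttccac
RALB, 7mer-m8, chr2:120293271-120293277, plus strand: gtgtcaaggtGACGGATgaagcc
PLAA, 8mer, chr9:26905489-26905496, minus strand: cagtggggaagaggGACGGATAttttt
RGS3, 8mer, chr9:113597073-113597080, plus strand: ggctgtgtctctggacaGACGGATAgacat
CAT, 7mer-m8, chr11:34471657-34471663, plus strand: aaaaaaaaatttgttttGACGGATgattgg
RRM1, 7mer-A1, chr11:4138608-4138614, plus strand: gaaaaaaagaaaaaaaaaACGGATAtattg
LMTK2, 7mer-m8, chr7:98207860-98207866, plus strand: attggggggtcgaggcgGACGGATcacttt
CDC42, 7mer-m8, chr1:22092037-22092043, plus strand: gcccttaaggggaggagGACGGATtgattc
CCZ1, 7mer-m8, chr7:5925686-5925692, plus strand: catcttcttcttggattGACGGATgacggc
CCZ1B, 7mer-m8, chr7:6799219-6799225, minus strand: catcttcttcttggattGACGGATgacggc

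In KIFC1, AGPAT9, SNAP29, RALB and PLAA the site lies within the first 30 bases after the stop codon. The windows of CCZ1 and CCZ1B are the same letters, as these genes are near-identical copies on chromosome 7 whose reads may not be separable.

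The labels were checked first. MIR4800 was listed at 0 in both libraries, which a library of polyadenylated RNA gives for a mature microRNA whatever its amount, so the data hold no direct reading of the mimic. MXD4, the gene whose transcript hosts MIR4800, was at 13.97 FPKM with the mimic against 10.1 (0.44). CDKN2A and CDKN2B, tumour suppressor genes of a locus that MIA PaCa-2 is known to have lost, were at 0 in both libraries. Of 8 epithelial markers, the keratin genes KRT8 (737 and 923 FPKM), KRT18 (718 and 653) and KRT19 (178 and 131) were high, while the adhesion genes CDH1 and EPCAM and the splicing regulator ESRP1 were below 1 FPKM in both libraries and KRT7 was at 0. The mesenchymal filament gene VIM was at 4401 and 4111 FPKM and the repressor gene ZEB1 at 30.5 and 24.1. The tight junction gene CLDN4 was at 2.72 and 0.869 FPKM, so the labelled epithelial line showed high keratins with junction and adhesion markers low or at 0. Of 5 leukocyte markers, 4 were below 1 FPKM in both libraries, with PTPRC and CD3E at 0, and their sum (35.9 and 21.2 FPKM) was nearly all CD68, a lysosomal protein gene. The endothelial sum was at most 0.027 FPKM, all 5 acinar and endocrine markers were at 0, and the fibroblast sum (67.0 and 84.7 FPKM) came from COL1A2 and COL3A1, with LUM at 0 and DCN below 1.

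Over all 8732 genes the median change was 0.02, and the middle 95% lay between -0.62 and 0.77. By any amount 52.6% of genes were higher with the mimic and 47.4% lower. Past 1.5-fold, 426 genes (4.88%) were higher and 262 (3.00%) lower. Beyond 2-fold, 97 (1.11%) were higher and 30 (0.344%) lower, so the far end of the distribution was longer on the higher side. This held among the most abundant transcripts too: of 183 genes averaging 300 FPKM or more, 16 were higher past 1.5-fold and 3 lower, against a median of 0.02. The 3 lower ones, named after their values were seen, encode heat shock proteins or collagen's chaperone: HSPA1A, HSPB1 and SERPINH1. Those higher included YBX1, an RNA- and DNA-binding cold shock protein (718 against 296 FPKM, 1.28), TM4SF1, a tetraspanin-like surface protein (441 against 203 FPKM, 1.11), and SGK1, a serum- and glucocorticoid-induced kinase (748 against 345 FPKM, 1.11), also named after their values were seen.

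**Figure D1:**
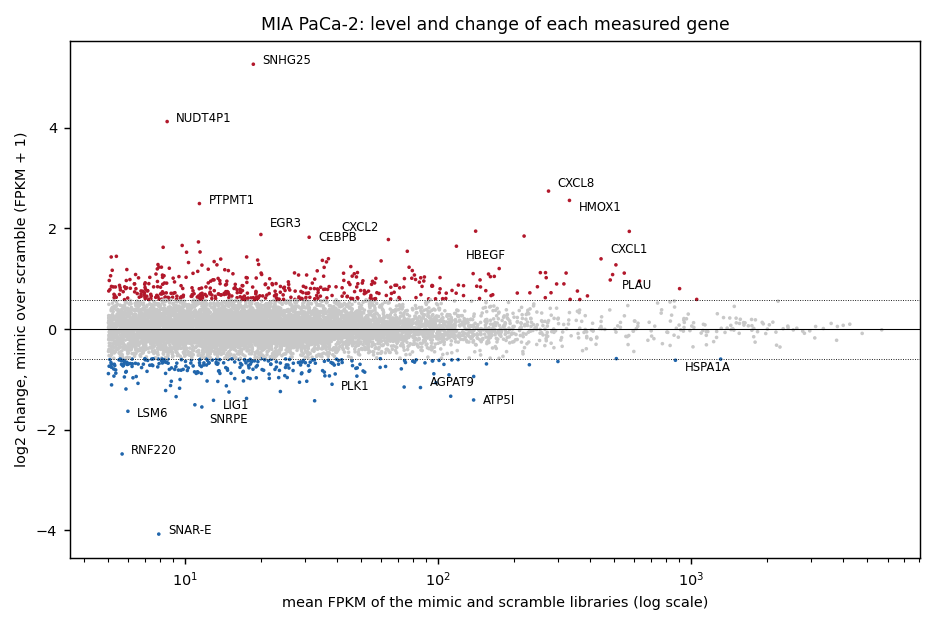
Mean FPKM of the MIA PaCa-2 mimic and scramble libraries (x axis, log scale) against the log2 change (y axis) for the 8732 genes, 1 point per gene. Dotted lines mark 1.5-fold, red points (426) are higher and blue points (262) lower past it, and CXCL8, HMOX1 and CXCL1 stand out among the abundant genes. SNHG25 and SNAR-E are listed at 0 in 1 library, so their height depends on the added 1 FPKM.

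The 25 highest changes held secreted inflammatory factors, growth factor ligands and stress enzymes. CXCL8, the neutrophil chemokine interleukin 8, stood at 478 FPKM after the mimic against 70.6 after the scramble, a change of 2.74. HMOX1, which degrades heme, stood at 568 against 95.7 FPKM (2.56). PTPMT1, a phosphatase of the mitochondrial inner membrane needed to make cardiolipin, stood at 20.1 against 2.75 FPKM (2.49). These 3 rested on an estimated 8175 and 1078, 14725 and 2215, and 278 and 34 fragments, so each difference was far larger than its counting error. Also in this group were the morphogen gene SHH (15.4 against 4.18 FPKM, 1.66), the potassium channel gene KCNK5 (114 against 38.2 FPKM, 1.55), the cytokine signalling inhibitor SOCS1 (17.6 against 5.43 FPKM, 1.53) and SLC19A1, the reduced folate carrier (20.6 against 7.22 FPKM, 1.39). SRPR, a subunit of the receptor that brings ribosomes to the endoplasmic reticulum, was at 54.2 against 19.9 FPKM (1.40), and MCFD2, a cofactor of cargo export from that compartment, was at 28.5 against 10.4 FPKM (1.37).

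Some of the extreme values belong to features that short reads measure poorly. SNHG25, a small nucleolar RNA host gene, was at 37.4 FPKM with the mimic but listed at 0 for the scramble. SNAR-E, a short non-coding RNA, was at 15.8 FPKM in the scramble library but listed at 0 for the mimic, so neither has a fold change. The pseudogene copies of NUDT4 went opposite ways, with NUDT4P1 at 17.03 against 0.034 FPKM (about 1 fragment) and NUDT4P2 at 9.33 against 25.8 FPKM, and reads of near-identical copies can be shared out differently between them. The 3 measured MTRNR2L genes (225 against 57.7, 909 against 236 and 345 against 94.9 FPKM for MTRNR2L8, MTRNR2L9 and MTRNR2L2) are nuclear copies of mitochondrial ribosomal RNA and had nearly equal log2 changes, 1.85 to 1.95. PCNA-AS1 (63.6 against 162 FPKM, -1.33) lies antisense to the replication clamp gene PCNA, and with the strand setting of the counting not given its reads cannot be told apart from those of PCNA.

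The 25 lowest changes held genes of splicing, cell division, replication, ubiquitin handling and the cytoskeleton. RNF220, a ubiquitin ligase gene, was at 1.03 FPKM after the mimic against 10.3 after the scramble (-2.48, an estimated 44 and 394 fragments). LSM6, a subunit of the ring that stabilises U6 RNA and of the ring that promotes decapping of messages, was at 2.40 against 9.54 FPKM (-1.63), and SNRPE, a core protein of the spliceosomal particles, was at 5.48 against 17.9 FPKM (-1.55). RGS3, which switches off heterotrimeric G proteins, was at 17.3 against 48.0 FPKM (-1.42). ATP5I, subunit e of the ATP synthase, was at 75.5 against 202 FPKM (-1.41), the highest level among the 25. Regulators of actin followed at a lower level: ARHGDIA, which holds small GTPases inactive in the cytosol, was at 63.3 against 134 FPKM (-1.07), and DBN1, an actin-bundling protein, was at 45.4 against 102 FPKM (-1.15). PDGFA, a growth factor of mesenchymal cells, was at 3.19 against 8.55 FPKM (-1.19), and ITPKC, an inositol phosphate kinase, at 4.66 against 12.2 FPKM (-1.22).

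**Figure D2:**
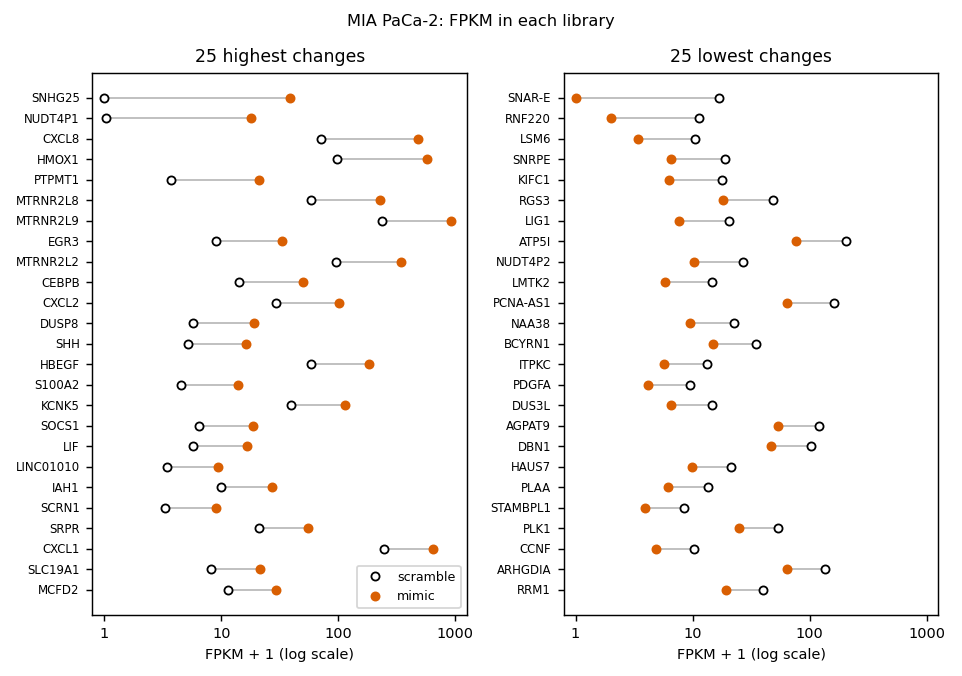
FPKM + 1 (x axis, log scale) of the 25 highest (left) and 25 lowest changes (right) in the MIA PaCa-2 mimic library (filled) and scramble library (open), with a line joining both values of a gene. CXCL8 and HMOX1 start from 70.6 and 95.7 FPKM with the scramble, while SNHG25 (scramble) and SNAR-E (mimic) are listed at 0.

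The share of genes that were lower was larger with a seed site than without. Of the 8732 genes, 8498 matched a protein-coding gene of the annotation and were searched; 207 (2.44%) held an 8mer or 7mer in the 3′ UTR and 385 (4.53%) held one in the coding sequence. Of the 207, 141 were lower and 66 higher, with a median of -0.12, where the other 8291 had a median of 0.02. Past 1.5-fold, 23 of the 207 were lower (11.1%) and 4 higher (1.93%), while 2.73% of the 8291 were lower and 4.83% higher. The near-identical copies CCZ1 and CCZ1B are counted as separate genes among the 23, here and in the counts below. By site class, the median was -0.19 for 18 genes with an 8mer (15 lower), -0.12 for 111 with a 7mer-m8 (73 lower), -0.10 for 78 with a 7mer-A1 (53 lower), -0.01 for 271 with a 6mer (143 lower) and 0.02 for 8020 with none (3745 lower). The shares did not follow this order throughout: 65.8% of 7mer-m8 genes and 67.9% of 7mer-A1 genes were lower, and 11.1% of 8mer genes against 15.3% of 7mer-m8 genes were lower past 1.5-fold. The steps between the neighbouring 8mer and 7mer classes are small beside their middle 50%, -0.29 to -0.10 for the 8mer and -0.38 to 0.10 for the 7mer-m8.

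Read from the other side, 8 of the 26 searched genes lower past 2-fold held a 3′ UTR site, as against 0 of the 91 higher past 2-fold. Of the 249 searched genes lower past 1.5-fold, 23 (9.24%) held a 3′ UTR site and 33 (13.3%) a coding site, and of the 404 higher past 1.5-fold, 4 (0.990%) and 7 (1.73%) did. Most genes lower past 1.5-fold held neither, 196 of 249. The 4 higher genes with a 3′ UTR site, named after their values were seen apart from AEN, were ELOF1 (33.8 against 17.8 FPKM), TRUB2, C12orf49 and AEN, a nuclease of the p53 pathway (35.2 against 22.7 FPKM).

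Genes whose only site lay in the coding sequence were lower about as often as genes with a 3′ UTR site. Of 368 such genes 250 were lower (67.9%), with a median of -0.13, and 30 were lower past 1.5-fold against 7 higher. Long coding sequences hold more sites and were themselves lower, so the values were taken within bands of coding length. The medians with and without a coding site were -0.15 and 0.07 under 1000 bases, -0.16 and 0.03 from 1000 to 2000 bases, and -0.13 and -0.03 at 2000 bases and over, so the gap was present in each band. A site in both regions went with the lowest median, -0.28 over 17 genes, 16 of them lower; THOC1, named after its values were seen, was the gene that was higher (22.5 against 21.1 FPKM). A site in the 5′ UTR alone went with a median of -0.05 over 50 genes, 30 of them lower.

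Site position was compared as well. Distance was counted from the first base of the 3′ UTR to the ACGGAT core, over the 203 genes with 1 site. The 25 genes with the site within 100 bases had a median of -0.40, with 20 lower and 10 lower past 1.5-fold (40.0%). The other 178 had a median of -0.10, with 13 lower past 1.5-fold (7.30%). Each site was placed in the longest annotated 3′ UTR, and a farther site can be absent where a shorter form is expressed. Which forms these libraries expressed was not tested, so the near and farther groups may differ in this as well. The limit of 100 bases was chosen after the values were seen; within 50, 200 and 500 bases the share lower past 1.5-fold was 33.3%, 31.4% and 26.2%, and the median was -0.23, -0.37 and -0.37, so the closest sites did not have the lowest median. Short 3′ UTRs place more of their sites near the stop codon, and site genes with a 3′ UTR under 1000 bases were lower as a group (median -0.30 over 30 genes). Among 3′ UTRs of 1000 bases or more the difference by position was still present, with a median of -0.58 for the 18 near sites and -0.10 for 155 farther ones. Among shorter 3′ UTRs it was not: the median was -0.23 for the 7 near sites and -0.36 for 23 farther ones. In PSN-1 the same 25 genes had a median of -0.45 and the 178 a median of -0.09.

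The near-stop genes are of mixed function. KIFC1, a motor that slides spindle microtubules together and clusters extra centrosomes, was at 5.25 against 16.7 FPKM (-1.503), with the core 3 bases into the UTR. AGPAT9, now called GPAT3, makes lysophosphatidic acid from glycerol phosphate at the start of triglyceride synthesis. It was at 52.5 and 119 FPKM (-1.16), which an estimated 1965 and 3963 fragments support, and at 9.22 and 31.9 FPKM in PSN-1. PLAA, a partner of the segregase VCP in ubiquitin handling, was at 5.17 and 12.4 FPKM (-1.12). RALB, a RAS-like GTPase downstream of RAS that acts on the exocyst, was at 29.3 and 48.8 FPKM (-0.71), and SNAP29, a membrane fusion protein of autophagosomes, was at 10.005 and 16.7 FPKM (-0.69). UPF1, the helicase of nonsense-mediated decay, was at 28.98 and 44.97 FPKM (-0.62), TSN, an RNA-binding endonuclease partner, at 14.2 and 22.4 FPKM (-0.63), and PRDX2, a peroxide-reducing enzyme, at 148 and 215 FPKM (-0.54); these 3, like SNAP29 and B4GALT1, were named after their values were seen. A near site did not always go with a lower level: B4GALT1 was at 8.33 and 6.53 FPKM (0.31) with its core 12 bases from the stop codon, the same distance as in RALB.

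Farther sites included some large differences as well. The 8mer of RGS3 has its core 121 bases from the stop codon. LMTK2, a membrane kinase of endosomal traffic, was at 4.81 against 13.7 FPKM (-1.34) with its core 2369 bases from the stop codon. CAT, the catalase that breaks down hydrogen peroxide, was at 14.2 and 29 FPKM (-0.98), and TARS2, the mitochondrial threonyl-tRNA synthetase, at 8.51 and 18.5 FPKM (-1.04). CDC42, the small GTPase of filopodia and polarity, was at 35.3 and 60.9 FPKM (-0.77). The copies CCZ1 and CCZ1B, parts of the exchange factor that recruits RAB7, were at 5.63 and 11.2 and at 3.48 and 7.22 FPKM, with nearly equal changes of -0.88 and -0.87. Other 8mer genes moved less, as did these 2, named after their values were seen: LMAN2, a cargo lectin of the early secretory pathway, was at 60.3 and 77.7 FPKM (-0.36) and STAT6, the transcription factor of interleukin 4 signalling, at 13.99 and 17.5 FPKM (-0.30). STK25, a serine/threonine kinase with a 7mer-m8 site, was at 54.4 and 58.3 FPKM (-0.10).

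**Figure D3:**
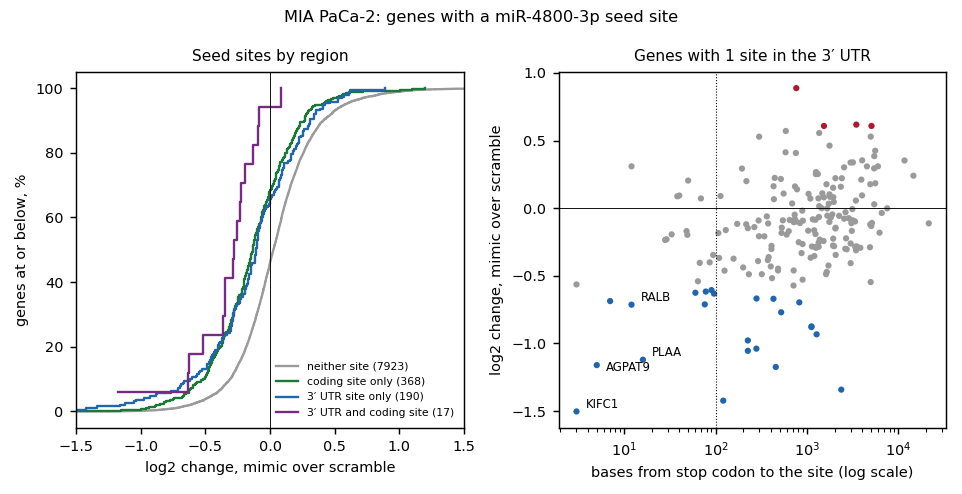
Left, the share of genes at or below each log2 change (cumulative percent), by where an 8mer or 7mer seed site lies, with the number of genes in brackets. Right, log2 change against the distance from the stop codon to the site (log scale) for the 203 genes with 1 site in the 3′ UTR, with 1.5-fold changes coloured and a dotted line at 100 bases; 10 of the 25 genes left of the line are lower past 1.5-fold, against 13 of the 178 right of it.

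Genes of mitosis were lower almost throughout. Of 45 measured kinase, spindle and kinetochore genes 42 were lower and 19 were lower past 1.5-fold, with a median of -0.52. Among all 8732 genes 47.4% were lower and 52.6% higher, and 3.00% were lower and 4.88% higher past 1.5-fold. These shares are the background for every list below. PLK1, the kinase that drives mitotic entry and spindle assembly, was at 24.0 against 52.5 FPKM (-1.09). KIF20A, a kinesin of cytokinesis, was at 12.7 against 25.7 FPKM (-0.97), KIF18B, a kinesin at microtubule ends, was at 7.74 against 14.9 FPKM (-0.86), and INCENP, scaffold of the chromosomal passenger complex, was at 9.58 against 17.8 FPKM (-0.83). KIFC1 was the list's 3′ UTR site gene and INCENP its coding site gene; the other 43 held neither. The 3 members that were not lower were UBE2C, MAD2L1 and BUB3. UBE2C, the ubiquitin-conjugating enzyme of the anaphase-promoting complex, was higher by a wide margin (360 against 177 FPKM, 1.02), MAD2L1 was at 16.2 FPKM in both libraries, and BUB3 was at 57.2 against 49.0 FPKM (MAD2L1 and BUB3 were named after their values were seen). In PSN-1, where 51.2% of the 8732 genes were lower and 48.5% higher, 34 of the 45 were lower, with a median of -0.16.

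DNA replication genes followed the same direction. Of 50 measured members 45 were lower, 10 past 1.5-fold and none higher past it, with a median of -0.35. LIG1, which joins Okazaki fragments, was at 6.65 against 19.4 FPKM (-1.41). RRM1, the large subunit of ribonucleotide reductase and one of the site genes shown above, was at 18.1 against 38.8 FPKM (-1.05). MCM2, of the replicative helicase, was at 25.4 against 49.3 FPKM (-0.93) and ORC6, of the origin recognition complex, at 11.96 against 22.2 FPKM (-0.84). POLE, the leading-strand polymerase, was at 16.9 against 29.2 FPKM (-0.75) and PCNA at 46.4 against 78.2 FPKM (-0.74). With the strand setting not given, the reads of PCNA cannot be told apart from those of its antisense PCNA-AS1. In PSN-1, 39 of the 50 were lower with a median of -0.15.

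Other chromosome genes were lower by less. Of 18 cohesin and condensin genes 14 were lower (median -0.17), with the condensin genes SMC4 (37.4 against 61.3 FPKM, -0.70) and NCAPG (8.46 against 14.5 FPKM, -0.71) past 1.5-fold. Of 20 homologous recombination and Fanconi genes 16 were lower (median -0.19), and the helicase gene BLM was at 4.36 against 7.64 FPKM. Among the 4 that were higher, only UBE2T, the ubiquitin-conjugating enzyme of the Fanconi pathway, was past 1.5-fold (8.56 against 4.12 FPKM, 0.90). Of 16 E2F and RB family genes 12 were lower (median -0.18), among them FOXM1, the transcription factor of late cell cycle genes (46.9 against 57.5 FPKM, -0.29), and E2F1 (11.3 against 15.2 FPKM, -0.39), while E2F5, of the repressive subgroup, was at 6.56 against 3.47 FPKM (0.76). Cyclins and their kinases were split, with 12 of 29 higher and 17 lower. Within them the mitotic cyclin gene CCNA2 (9.42 against 18.2 FPKM, -0.88), CCNF, a cyclin that acts as a ubiquitin ligase receptor (3.85 against 9.24 FPKM, -1.08), and the CDK inhibitor gene CDKN2C (52.4 against 91.3 FPKM, -0.79) were lower past 1.5-fold. WEE1, the kinase that holds CDK1 inactive (82.4 against 42.6 FPKM, 0.94), CCND3 and CDKN1C were higher past it.

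Promoters of the mitotic genes are shown because most of the list was lower and cell cycle promoters have known elements. In RefSeq promoters (GRCh38.p14, 250 bases before the start, both strands), the cell cycle genes homology region, searched as TTTGAA or TTTAAA, was found in 21 of 37 mitotic promoters (56.8%) and in 12.8% of the 6858 promoters of measured genes. The CCAAT box, searched as CCAAT, was found in 28 of the 37 (75.7%) and in 36.0% of those promoters. Neither motif tracked direction across lists: the CCAAT box was in 27 of 34 promoters of the unfolded protein and stress response list (79.4%), which was mostly higher, and the homology region in 4 of 42 promoters of the replication list (9.52%), which was mostly lower. These short motifs also occur by base composition alone, and a match is a match of letters. The windows end at the base before the start, capitals mark both motifs, and CDC20, which activates the anaphase-promoting complex, was picked for its motifs.

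PLK1, chr16:23678789-23678888, plus strand: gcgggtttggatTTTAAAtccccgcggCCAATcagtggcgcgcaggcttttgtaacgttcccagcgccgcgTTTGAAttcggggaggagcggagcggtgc
CDC20, chr1:43358851-43358980, plus strand: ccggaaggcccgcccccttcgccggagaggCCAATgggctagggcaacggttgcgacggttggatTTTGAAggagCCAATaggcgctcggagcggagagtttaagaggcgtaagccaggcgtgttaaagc

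Chemokine and cytokine genes were higher with the mimic. Of 19 measured members 15 were higher (78.9%, all genes 52.6%) and 8 were higher past 1.5-fold (all genes, 4.88%), with a median of 0.40. None was lower past 1.5-fold, and over all genes only 3.00% were. CXCL8 and CXCL1, ligands of the neutrophil receptors, were the most abundant of them with the mimic; CXCL1 stood at 642 against 243 FPKM (1.40). CXCL2, from the same cluster on chromosome 4, stood at 99.5 against 28.3 FPKM (1.78). LIF, a cytokine of the interleukin 6 family, stood at 15.6 against 4.76 FPKM (1.53), while LIFR and IL6ST, its receptor subunits, were at 20.9 against 22.3 and 11.4 against 11.9 FPKM (both named after their values were seen). The receptor genes TNFRSF12A, for the ligand TWEAK, and IFNGR2, a chain of the interferon gamma receptor, were at 58.7 against 30.4 FPKM (0.93) and 123 against 67.6 FPKM (0.86). In PSN-1 the list was split, 8 higher and 11 lower, with a median of -0.03. No member held a 3′ UTR or coding site, which 2.44% and 4.53% of all searched genes held.

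The promoters of CXCL1, CXCL2 and CXCL8 are printed because these are the neutrophil chemokine genes among the 25 highest changes, and capitals mark the motif named for each. The NF-kB motif, searched on both strands as GGG and TTTCC with any 2 bases between them, was found in 6 of 13 promoters of the list (46.2%) and in 1.998% of promoters of measured genes. In CXCL1 and CXCL2 it is the same 10 letters at nearly the same distance from the start, 79 and 78 bases. The window of CXCL8 held the AP-1 motif TGANTCA, which 3.41% of promoters of measured genes hold, and no match to the NF-kB letters searched. Its stretch tggaatttcc differs from those letters at the first base only. The lack of a match therefore means only that the exact letters were absent.

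CXCL1, chr4:73869263-73869392, plus strand: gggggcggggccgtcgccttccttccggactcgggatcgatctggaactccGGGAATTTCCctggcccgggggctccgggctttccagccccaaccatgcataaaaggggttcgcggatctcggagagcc
CXCL2, chr4:74099196-74099325, minus strand: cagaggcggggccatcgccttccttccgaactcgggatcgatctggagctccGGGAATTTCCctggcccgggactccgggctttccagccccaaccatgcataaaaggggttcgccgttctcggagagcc
CXCL8, chr4:73740419-73740568, plus strand: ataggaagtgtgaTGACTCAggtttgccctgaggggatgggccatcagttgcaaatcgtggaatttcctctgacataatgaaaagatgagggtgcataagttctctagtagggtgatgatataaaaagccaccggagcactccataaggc

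The NF-kB pathway's own genes showed less. Of 25 measured subunit, inhibitor and feedback genes 16 were higher and 9 lower, with a median of 0.15. BIRC3, a ubiquitin ligase of the pathway and its target, was at 13.1 against 5.86 FPKM (1.04), and NFKBIA, the inhibitor that NF-kB induces, at 85.5 against 56.0 FPKM (0.60). NFKBIZ, a nuclear cofactor, was lower (4.10 against 8.78 FPKM, -0.94), and RELB, of the alternative pathway, was at 14.1 against 9.86 FPKM (0.47). Interferon-stimulated genes were evenly divided, 11 higher and 10 lower of 21, with ISG20, an exonuclease (10.6 against 5.02 FPKM, 0.95), and USP18, which removes ISG15 (4.06 against 7.38 FPKM, -0.73), at the ends. The 9 measured HLA class I presentation genes lay between -0.18 (CALR) and 0.37 (B2M).

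Immediate-early transcription factor genes, which respond within minutes to growth factors and stress, were higher in 24 of 31 cases, 12 past 1.5-fold, with a median of 0.45. EGR3 stood at 32.1 against 7.98 FPKM (1.88) and EGR2 at 17.6 against 7.17 FPKM (1.19). CEBPB, a factor of inflammatory and acute-phase genes, stood at 49.0 against 13.1 FPKM (1.83), KLF2 at 52.5 against 20.2 FPKM (1.34), FOSL1, an AP-1 subunit prominent in RAS-driven cells, at 120 against 57.8 FPKM (1.04), and MAFF at 24.0 against 11.4 FPKM (1.02). IER5, named after its values were seen, was the member lower past 1.5-fold (16.9 against 32.9 FPKM, -0.92). The same 31 genes had a median of 0.22 in PSN-1, with 21 higher.

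Feedback genes of the MAP kinase pathway went the same way. Of 17 measured members 16 were higher, 7 past 1.5-fold (median 0.34), and SPRY1 was the lower one (38.6 against 48.9 FPKM, -0.33, named after its values were seen). DUSP8, a phosphatase of stress kinases, stood at 18.0 against 4.71 FPKM (1.73), PHLDA1 at 137 against 67.1 FPKM (1.02), DUSP5, the nuclear phosphatase of ERK, at 41.7 against 23.5 FPKM (0.81) and SPRY2, an inhibitor of receptor signalling, at 257 against 156 FPKM (0.72). In PSN-1, 8 of the 17 were higher and 9 lower. The pathway's own components were mixed, 14 of 25 higher and 11 lower. Among them HRAS (21.99 against 40.1 FPKM, -0.84), MAPK3, which encodes ERK1 (22.3 against 40.2 FPKM, -0.82), and RALB were lower past 1.5-fold, while NRAS (28.7 against 17.5 FPKM, 0.69) and the adaptor gene SHC1 (288 against 175 FPKM, 0.72) were higher past it. MAPK3 held a coding site and RALB a 3′ UTR site; NRAS, HRAS and SHC1 held neither.

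The list of EGF ligand and receptor genes also held the protease genes ADAM10 and ADAM17 and the inhibitor gene ERRFI1. Of its 8 measured members 5 were higher and 3 lower, with a median of 0.41. HBEGF, a membrane-anchored EGF receptor ligand, stood at 180 against 56.9 FPKM (1.65), AREG at 9.35 against 6.29 FPKM (0.51) and EREG at 82.0 against 65.4 FPKM (0.32). ADAM17, the protease that sheds them, stood at 23.9 against 15.2 FPKM (0.62) and ERRFI1, an inhibitor of the receptor, at 1151 against 658 FPKM (0.80). The receptor genes EGFR (64.9 against 65.7 FPKM) and ERBB2 (43.02 against 45.1 FPKM), named after their values were seen, differed by less than 0.1 on the log2 scale.

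Urokinase and its receptor, which let cells digest matrix and are often studied in metastasis, were higher. Of 16 measured proteases and inhibitors 11 were higher and 5 past 1.5-fold, with a median of 0.11. PLAU, the urokinase protease, stood at 669 against 315 FPKM (1.08) and its receptor gene PLAUR at 71.6 against 38.1 FPKM (0.89), so the protease and its receptor were both higher in this pair of libraries. TIMP1, an inhibitor of metalloproteases, stood at 1270 against 843 FPKM (0.59), and MMP15, a membrane metalloprotease, at 10.8 against 15.6 FPKM (-0.49). TGFB1, which encodes the TGF-beta ligand, stood at 17.1 against 8.32 FPKM (0.95) and PMEPA1, a target of that pathway, at 9.34 against 4.58 FPKM (0.89), while 13 of 19 pathway genes were higher with a median of 0.02, and 10 of the 19 were lower once the mimic library was rescaled to the summed FPKM of the scramble.

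Genes of cell state and adhesion did not share a direction. Of 12 measured epithelial and mesenchymal state genes 9 were higher (median 0.09), and the repressor gene SNAI1 was the member lower past 1.5-fold (6.59 against 12.3 FPKM, -0.81). Of 48 integrin, adhesion and cytoskeleton genes 31 were higher and 17 lower (median 0.10). ITGB1, the common beta chain of integrins, stood at 438 against 291 FPKM (0.59) and the tubulin gene TUBB2B at 30.3 against 15.7 FPKM (0.90), while ARHGDIA, CDC42 and ACTN4, a crosslinker of actin (89.8 against 138 FPKM, -0.61), were lower past 1.5-fold. In the Hippo list the target CYR61 (109 against 54.6 FPKM, 0.99) and the cofactors VGLL4 (17.5 against 8.38 FPKM, 0.98) and WWTR1, a paralog of YAP1 (177 against 116 FPKM, 0.61), were higher past 1.5-fold. Of the 19 Hippo genes 12 were higher (63.2%, all genes 52.6%), with a median of 0.05. In the Notch list the ligand gene JAG1 (11.3 against 4.35 FPKM, 1.20), the target HES1 (53.8 against 30.03 FPKM, 0.82) and RBPJ, the pathway's DNA-binding factor (12.3 against 7.49 FPKM, 0.64), were higher past 1.5-fold. Of the 16 Notch genes 10 were higher (62.5%, all genes 52.6%).

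**Figure D4:**
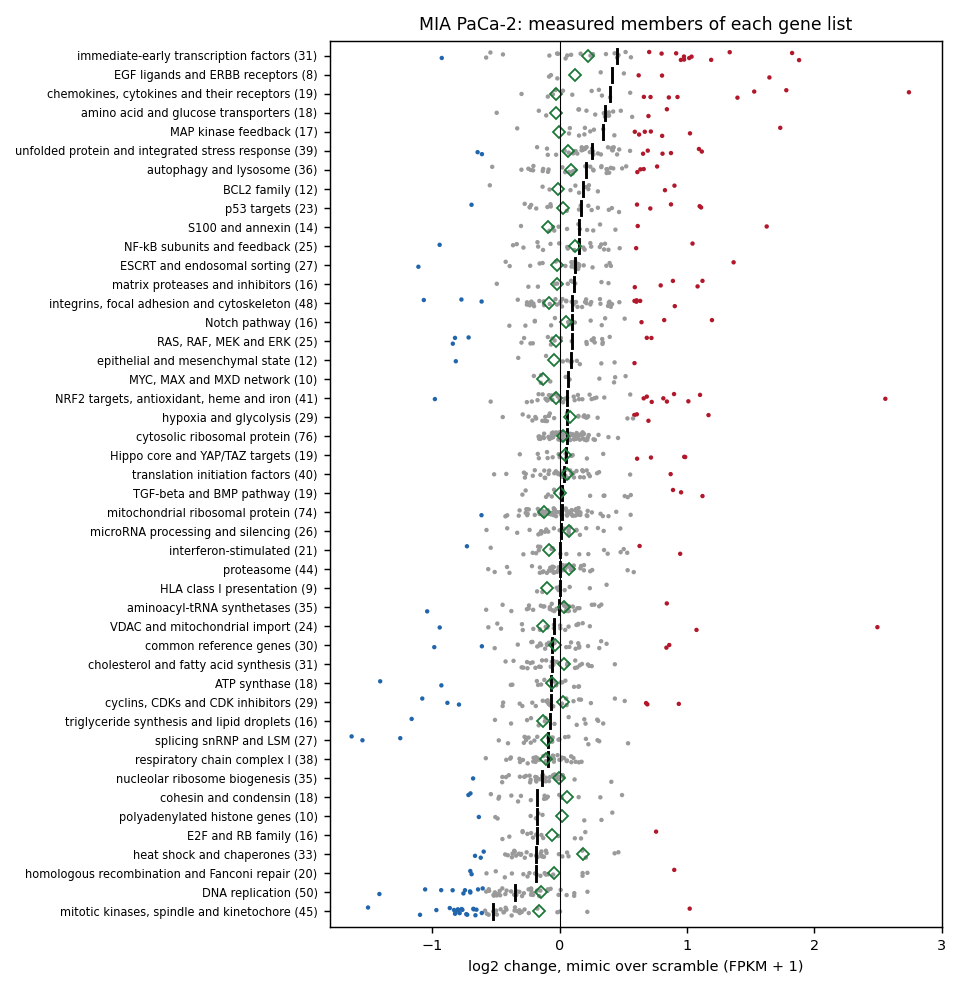
Log2 change of each measured member (points; red higher and blue lower past 1.5-fold) of the gene lists with at least 8 measured genes, ordered by their median in MIA PaCa-2 (black bar), with the number measured in brackets and the PSN-1 median of the same genes as a green diamond. Mitotic genes (median -0.52) and replication genes (-0.35) are lowest and immediate-early factors (0.45) highest at this filter.

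Stress responses differed from each other. Of 39 genes of the unfolded protein and integrated stress responses 33 were higher (median 0.25), 6 past 1.5-fold. TRIB3, a pseudokinase induced by ATF4, stood at 217 against 101 FPKM (1.09), SESN2, an inhibitor of mTORC1 signalling, at 157 against 85.0 FPKM (0.87), CEBPG at 20.2 against 11.1 FPKM (0.81) and EIF2AK3, the sensor kinase PERK, at 14.5 against 8.59 FPKM (0.69). The members lower past 1.5-fold were PPP1R15A, which restores translation by dephosphorylating eIF2 (233 against 365 FPKM, -0.64), and SDF2L1, both named after their values were seen. Amino acid and glucose transporters were higher in 15 of 18 cases (median 0.35), with the cystine carrier gene SLC7A11 (10.3 against 5.32 FPKM, 0.84) and the glucose carrier gene SLC2A3 (17.1 against 10.1 FPKM, 0.70) past 1.5-fold.

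Heat shock and chaperone genes moved the other way. Of 33 measured members 26 were lower (median -0.18), and in PSN-1 30 of the same 33 were higher (median 0.18). HSPA1A, an inducible HSP70 gene, was at 687 against 1055 FPKM (-0.62), HSPB1 at 1047 against 1582 FPKM (-0.60) and DNAJB4 at 57.6 against 91.7 FPKM (-0.66). The mitochondrial chaperone gene HSPA9 was at 278 against 201 FPKM (0.46). HSPA1A has a near-identical neighbouring copy, so its reads may be shared with it. The difference between the lines was not tested.

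Antioxidant genes were led by a few members. Of 41 measured NRF2, heme and iron genes 25 were higher and 16 lower (median 0.06), and 9 were higher past 1.5-fold. Beside HMOX1, these included OSGIN1 (189 against 87.4 FPKM, 1.10), SRXN1, which repairs oxidised peroxiredoxins (106 against 52.1 FPKM, 1.01), and TXNRD1, thioredoxin reductase (411 against 220 FPKM, 0.90). CAT, with its 3′ UTR site, was the member lower past 1.5-fold. In PSN-1 OSGIN1, SRXN1 and TXNRD1 stood at 12.3 against 15.9, 16.3 against 23.3 and 145 against 201 FPKM, the opposite order. Autophagy and lysosome genes were higher in 26 of 36 cases (median 0.21), among them SQSTM1, the receptor for ubiquitinated cargo (479 against 303 FPKM, 0.66), and WIPI1 (21.6 against 12.3 FPKM, 0.77). In the ESCRT list, CHMP1B, a membrane-remodelling subunit, was at 50.9 against 19.1 FPKM (1.37) and STAMBPL1, a deubiquitinase, at 2.90 against 7.396 FPKM (-1.11).

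Among p53 target genes, in a line known to carry mutant p53, 14 of 23 were higher (60.9%, all genes 52.6%) and 9 lower (median 0.17). GADD45A, a stress-induced growth arrest gene, stood at 58.5 against 26.5 FPKM (1.11) and PLK3 at 21.5 against 9.52 FPKM (1.10), while GADD45B was lower (119 against 193 FPKM, -0.69). Of 12 BCL2 family genes 9 were higher (median 0.18). The survival genes MCL1 (63.3 against 33.4 FPKM, 0.90) and BCL2L1 (38.8 against 21.5 FPKM, 0.83) were past 1.5-fold, and BCL2L11, which encodes the pro-death protein BIM, was at 28.2 against 41.6 FPKM (-0.55).

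Genes of RNA and protein synthesis moved little as groups. Of 76 cytosolic ribosomal protein genes 50 were higher (median 0.06) and none was past 1.5-fold in either direction, and of 74 mitochondrial ones 38 were higher (median 0.02). Nucleolar ribosome biogenesis genes were lower in 31 of 35 cases by small amounts (median -0.13), with DKC1, the pseudouridine synthase (29.4 against 47.7 FPKM, -0.68), the member past 1.5-fold. Of 27 splicing particle and LSM genes 20 were lower (median -0.09); apart from LSM6, SNRPE and NAA38 no member was past 1.5-fold. NAA38 was at 8.46 against 21.5 FPKM (-1.25); this symbol has been used both for an LSM gene and for an acetyltransferase subunit, and the files do not say which. LSM6 held a coding site, LSM4 (44.4 against 59.0 FPKM, -0.40) a 3′ UTR site and SNRPE neither. Of 40 translation initiation genes 23 were higher, with EIF3B at 89.4 against 48.4 FPKM (0.87), and of 35 aminoacyl-tRNA synthetase genes 17 were higher, with GARS at 319 against 177 FPKM (0.84). The 44 proteasome genes were split evenly, 22 and 22, with none past 1.5-fold.

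In mitochondria, changes of single genes stood out from groups that hardly moved. Of 38 complex I genes 27 were lower (median -0.09), none past 1.5-fold, and of 18 ATP synthase genes 12 were lower, with ATP5I and ATP5G3, a gene for the rotor's c subunit (24.4 against 47.3 FPKM, -0.93), past it. VDAC1, the main channel of the outer membrane, was at 94.9 against 183 FPKM (-0.94), and TOMM20, the import receptor, at 38.6 against 17.8 FPKM (1.08). In PSN-1 these 4 had changes of -1.44, -0.95, -1.01 and 0.71 in the order ATP5I, ATP5G3, VDAC1 and TOMM20. None of them, and neither PTPMT1, held a 3′ UTR or coding site of the classes counted. Lipid synthesis genes showed no member past 1.5-fold apart from AGPAT9: 20 of 31 cholesterol and fatty acid genes were lower (median -0.06), FASN among them (41.7 against 51.0 FPKM, -0.28).

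The silencing machinery itself differed little. Of 26 microRNA processing and silencing genes 14 were higher and 12 lower, with none past 1.5-fold. AGO2, the slicing Argonaute, was at 46.3 against 44.0 FPKM (0.07), AGO1 at 15.5 against 14.6 FPKM (0.08), AGO3 at 16.7 against 14.3 FPKM (0.21) and AGO4 at 9.86 against 6.80 FPKM (0.48). DICER1, which cuts precursors and holds a 7mer-A1 site, was at 12.4 against 15.9 FPKM (-0.33). MYC, at 872 against 609 FPKM (0.52), was the member of its network with the largest change. Genes often used as references were not all stable: TBP was at 22.2 against 11.8 FPKM (0.86), RAB7A at 190 against 106 FPKM (0.84), IPO8 at 10.3 against 21.3 FPKM (-0.98) and POLR2A at 32.9 against 50.7 FPKM (-0.61), while the median of all 30 was -0.06.

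Most of the 25 lowest and of the 25 highest genes of MIA PaCa-2 had the same direction in PSN-1. Of the 25 lowest, 23 were lower in PSN-1 as well (all genes, 51.2%), 16 of them past 1.5-fold, with a median of -0.73. Of the 25 highest, 21 were higher in PSN-1 (all genes, 48.5%), 10 past 1.5-fold, with a median of 0.38. These counts take in all 25 genes of each group. In PSN-1, 22 of the lowest and 24 of the highest averaged at least 5 FPKM, and the rest, PDGFA among them, averaged less. ATP5I (59.0 against 162 FPKM in PSN-1), SNRPE (5.81 against 19.996), LSM6 (4.497 against 14.9), STAMBPL1 (4.40 against 11.6) and PDGFA (2.46 against 6.98) had nearly the same change in both lines. KIFC1 (6.66 against 9.69 FPKM in PSN-1, -0.48), ITPKC (10.6 against 12.6, -0.22) and LIG1 (5.24 against 8.01, -0.53) were lower by less there. Among the highest, CEBPB (203 against 191 FPKM in PSN-1), CXCL2 (98.8 against 95.8) and KCNK5 (6.21 against 6.18) hardly differed in PSN-1, and LIF (10.1 against 14.6), SOCS1 (9.76 against 12.3) and S100A2 (22.5 against 26.4) were lower. DUSP8 was higher in both lines (9.28 against 1.22 FPKM in PSN-1). Of 21 searched genes among the 25 lowest, 7 held a 3′ UTR site and 2 a coding site without a 3′ UTR site. Of 21 searched among the 25 highest none held either. Over the 7936 genes measured in both lines, 117 were past 1.5-fold in both, 102 of them in the same direction. The share of all genes past 1.5-fold in PSN-1 is not given here. The counts past 1.5-fold in that line therefore cannot be set against it.

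**Figure D5:**
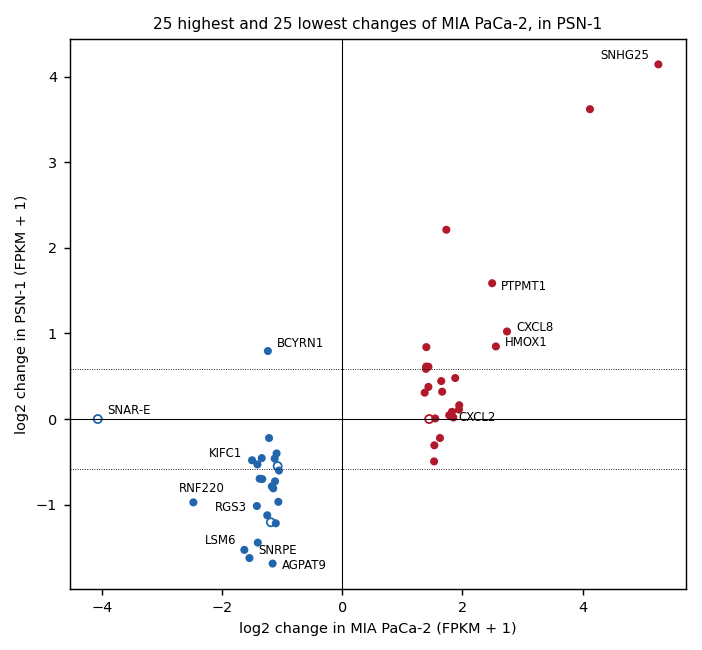
Log2 change in MIA PaCa-2 (x axis) against PSN-1 (y axis) for the 25 highest (red) and 25 lowest (blue) changes of MIA PaCa-2; open points have a mean below 5 FPKM in PSN-1 and dotted lines mark 1.5-fold in PSN-1. Of the lowest genes 23 lie below 0 in PSN-1, and of the highest 21 lie above it.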

How the data were processed

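The files hold deposited FPKM values by gene symbol, from 1 library for each combination of line and oligonucleotide, per the file headers. Per the labels' protocols, total RNA came from miRNeasy Micro extraction and went into TruSeq stranded mRNA libraries, so only polyadenylated RNA is read. The submitters' processing notes list TopHat2 2.1.1, Cuffdiff 2.2.1 and hg19. What each was used for, which annotation and strand setting the counting had, and whether libraries were scaled to each other are details not given in the sources. Because FPKM is relative to the library total, a few abundant genes can shift all others.

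From these values, log2 changes were computed after adding a pseudocount of 1, for genes averaging 5 FPKM or more, without a test, since each group has 1 library. Fragment numbers were estimated from genes with 1 annotated transcript and values under 0.15 FPKM. These values were scaled by transcript length less an assumed fragment length of 200 bases. The most common scaled value was taken as 1 fragment. Counting errors cover counting only. Genes were described by 47 gene lists and 6 marker lists by their counts and medians beside all genes. The members, the lists and the comparison were chosen with earlier results of these data known. Named genes were the 25 highest and 25 lowest changes, up to 6 members of each list by absolute change, the 15 lowest site genes, 8mer genes among the 200 lowest changes, MIR4800, MXD4, STK25 and the AGO genes; others are said to be named after their values were seen. Some named items are not reported here.

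The search for seed sites used, for each gene, the longest 3′ UTR and the coding and 5′ UTR sequence of GENCODE release 29 (GRCh38; the submitters list hg19), with genes matched on current and older symbols: 19026 of 26255 symbols matched. Mature and promoter sequences are from RefSeq (GRCh38.p14); 230 of 306 named genes had a promoter. Counting of folds and sites was tested on simulated data. Python 3.11.15 was used with pandas 2.3.3, numpy 2.4.6 and, for figures, matplotlib 3.10.9. Alternatives were other pseudocounts, filters, scalings, site definitions and the short RNA symbols.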

Additional observations from a re-analysis of the deposited data

Results flagged for a closer look

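For 5 genes named by the rule the change was past 1.5-fold in both lines and in opposite directions, and 4 of them are described. BCL2L1, which encodes the survival protein BCL-XL, was higher in MIA PaCa-2 (0.83) and lower in PSN-1 (-0.61). DUSP5, the nuclear ERK phosphatase, had changes of 0.81 and -0.75 in that order. OASL, an interferon-stimulated gene, had 0.63 and -0.74, at 10.6 against 6.51 FPKM and, in PSN-1, 4.25 against 7.79. BCYRN1, a short brain cytoplasmic RNA with many related copies in the genome, had -1.24 and 0.79. Each rests on 1 mimic and 1 scramble library per line, and the difference between the lines was not tested. Among all genes measured in both lines, 15 were past 1.5-fold in opposite directions.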

How the results depend on the processing

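A pseudocount of 5 gave 255 genes higher and 126 lower past 1.5-fold, and 49 and 13 past 2-fold, against 426, 262, 97 and 30 with a pseudocount of 1. With a mean of at least 1 FPKM the lower counts were 425 past 1.5-fold and 60 past 2-fold, with no filter 506 and 69, and with at least 10 FPKM 19 genes were lower past 2-fold; the number of genes tested also changes under these settings. Keeping short RNA symbols gave 54 lower past 2-fold. With no filter 23 of 29 chemokine and cytokine genes were higher. A pseudocount of 0.1 and both rescalings of the mimic library kept these counts within 1.5 times, and the rescalings moved the median of all genes by -0.017 and -0.043. The lower share of 3′ UTR site genes stayed between 64.7% and 70.5% under the alternatives run. Of 163 named genes past 1.5-fold, 163 were past it with a pseudocount of 0.1, 128 with 5, and 159 and 151 under the median and summed rescalings; none changed sign. No paired analysis was possible because MIA PaCa-2 has 1 library on each side, and for the same reason no library could be left out; a fit over both lines, with the lines as pairs, was not run. Counting error was largest for genes of 5 to 10 FPKM, but the share past 1.5-fold did not follow depth alone, at 10.3% there and 9.68% at 100 FPKM and over.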
